A study of Mus musculus with 12 samples.

Results

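Genes that steer growing axons were examined in sorted embryonic mouse motor neurons, in Pbx mutants and their control littermates. The 5 genes are Ntng1, Slit2 and Sema5a, which encode ligands, and Unc5c and Plxna4, which encode receptors. They were taken by gene symbol from the 2 deposited mutant comparisons, and they are 5 of 205 different genes in the deposited tables. E12.5 motor neurons marked by the Hb9::GFP reporter were sorted by fluorescence from thoracic or brachial spinal cord freed of meninges and ganglia, and their RNA was sequenced after amplification of the cDNA. The 4 groups were thoracic PbxMNdelta mutants, thoracic control littermates, brachial PbxMNdelta mutants and brachial control littermates, on a highly mixed C57BL/6 background. All carried the reporter, so that expression of Hb9 defined the cells in every group. There were 3 libraries in each group, lettered A to C. The sources used here state neither the alleles behind the name PbxMNdelta nor the driver of any deletion. The design names 9 pooled controls and 9 mutants, without their division over libraries, so p-values reflect the spread among these libraries alone, which may be technical.

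Growth cones are steered by secreted or membrane-bound cues, which attract or repel through receptors on the axon. Netrins attract axons through Dcc and repel them through the Unc5 receptors, Slits repel axons through Robo receptors, and semaphorins act largely through plexins, in part together with neuropilins. Netrin-G1, the product of Ntng1, is a relative of the netrins that is tethered to the membrane and binds a partner of its own rather than Dcc or Unc5. In the spinal cord such cues guide commissural axons at the midline and motor axons from the cord to the body wall, the limb and the sympathetic ganglia.

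Unc5c was the member listed at both levels. Ntng1 was listed only in the thoracic table and Slit2, Sema5a and Plxna4 only in the brachial table. Values of these 4 genes outside their own table were not used here, so a difference between levels cannot be read from the listing. In GENCODE on GRCm38, Ntng1 (ENSMUSG00000059857) and Unc5c (ENSMUSG00000059921) lie on chromosome 3, Slit2 (ENSMUSG00000031558) on chromosome 5, Plxna4 (ENSMUSG00000029765) on chromosome 6 and Sema5a (ENSMUSG00000022231) on chromosome 15. The gene body of Slit2 also holds Mir218-1, with no exon bases shared. Unc5c shares 118 exon bases with the antisense gene Gm15688, and Plxna4 shares 110 with Plxna4os3. The sources used here do not state the strand setting of the counting, so reads from these stretches cannot be assigned with certainty.

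The promoters of the members are shown because the members were lower together and because Pbx proteins are DNA-binding factors. RefSeq gave a promoter on GRCm38.p6 for 4 of the 5 members, Ntng1, Slit2, Sema5a and Unc5c, and the 250 bases before the start were read. Unc5c is listed at both levels, and Ntng1 is the other member in the thoracic table. The upstream windows of Unc5c (chr3:141465314-141465563, + strand) and of Ntng1 (chr3:110143473-110143722, − strand) follow from 5′ to 3′ with CpG dinucleotides in capitals.
Unc5c: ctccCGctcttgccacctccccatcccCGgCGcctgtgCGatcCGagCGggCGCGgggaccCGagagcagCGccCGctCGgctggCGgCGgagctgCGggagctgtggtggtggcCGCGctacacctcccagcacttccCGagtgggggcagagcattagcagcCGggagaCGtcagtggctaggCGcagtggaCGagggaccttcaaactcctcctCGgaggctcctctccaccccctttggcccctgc
Ntng1: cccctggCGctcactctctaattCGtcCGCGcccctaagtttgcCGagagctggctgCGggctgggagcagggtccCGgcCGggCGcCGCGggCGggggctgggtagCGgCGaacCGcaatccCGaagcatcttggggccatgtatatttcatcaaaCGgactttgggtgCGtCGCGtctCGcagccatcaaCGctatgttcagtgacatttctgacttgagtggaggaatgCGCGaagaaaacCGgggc
The windows hold 23 CpG dinucleotides for Unc5c and 25 for Ntng1, against a median of 6 over 32851 promoter windows of the same length. Slit2 has 25 and Sema5a 17. Windows with at least 17 CpG make up 23.5% of all promoters, and windows with at least 25 make up 10.7%, so CpG-rich starts are common to the 4 members but not rare. The G and C content is 62.4% for Ntng1, 69.6% for Slit2, 71.2% for Unc5c and 72.0% for Sema5a, against a median of 52.4%. The Pbx and Hox composite motif TGATNNAT, searched on both strands, is in none of the 4 windows and in 7.68% of all windows. The Meis and Pknox motif TGACAG, searched likewise, is in none of the 4 and in 15.9% of all. These letters being absent from the 250 bases before a start says nothing on binding elsewhere.

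In thoracic motor neurons, Ntng1 and Unc5c were both lower in Pbx mutants on the authors' scaling, a direction that turned when libraries were centred on the median listed gene. Ntng1, the ligand, read 414.5, 319.7 and 438.4 normalized counts in mutant libraries A, B and C, against 556.1, 599.4 and 698.8 in the thoracic controls in the same order. Normalized counts are the authors' values per library, which are whole multiples of 1 step in each library. Every mutant library was below every control library, and mutant B was the lowest. Ntng1 averaged 390.8 ± 62.8 in mutants and 618.1 ± 73.1 in controls (SD, n = 3 each), so that the mutant mean was 63.2% of the control mean. The log2 difference, mutant minus control on log2(normalized count + 0.5), was -0.67 (SE 0.18, 95% interval -1.09 to -0.25, limma adjusted p = 0.0107).

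Unc5c, a repulsive netrin receptor, read 1258, 1157 and 1326 normalized counts in thoracic mutants A, B and C, against 1849, 1654 and 1939 in thoracic controls A, B and C. The groups did not overlap, and the lowest control stood 327.3 normalized counts above the highest mutant. Unc5c averaged 1247 ± 85.3 in mutants and 1814 ± 146 in controls (SD, n = 3 each), with a mutant mean of 68.8% of the control mean. Its log2 difference was -0.54 (SE 0.14, 95% interval -0.87 to -0.21, limma adjusted p = 0.0105). Mutant B was the lowest mutant library and control C the highest control library for both genes. Mutant B was also the lowest mutant library for 60.0% of the 130 listed thoracic genes.

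In brachial motor neurons, Slit2, Sema5a, Unc5c and Plxna4 were all lower in Pbx mutants on the authors' scaling, and this direction too turned with the centring. Slit2, a secreted repellent that motor neurons and floor plate are known to make, read 3841, 4419 and 4697 normalized counts in mutants A, B and C, against 5066, 5967 and 5998 in controls A, B and C. The groups did not overlap, and library A was the lowest of its group in both. Slit2 averaged 4319 ± 437 in mutants and 5677 ± 529 in controls (SD, n = 3 each), and differed by -0.40 in log2 units (SE 0.14, 95% interval -0.71 to -0.08, limma adjusted p = 0.0263).

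Sema5a, a membrane-spanning semaphorin with thrombospondin repeats, read 916.8, 710.2 and 826.6 normalized counts in brachial mutants A, B and C, against 1188, 1222 and 949.1 in brachial controls A, B and C. Control C lay only 32.3 above mutant A, and the other two controls were well above every mutant. The means were 817.9 ± 104 in mutants and 1120 ± 149 in controls (SD, n = 3 each). The log2 difference was -0.45 (SE 0.16, 95% interval -0.81 to -0.09, limma adjusted p = 0.0263).

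Of the brachial receptors, Unc5c read 629.1, 683.2 and 773.5 normalized counts in mutants A, B and C, against 788.0, 1094 and 923.4 in controls A, B and C. Control A was within 14.5 of mutant C, so the groups were separate by a narrow margin. Unc5c averaged 695.2 ± 73.0 in brachial mutants and 935.2 ± 153 in brachial controls (SD, n = 3 each), and differed by -0.42 in log2 units (SE 0.16, 95% interval -0.79 to -0.05, limma adjusted p = 0.0321). Plxna4, a plexin through which class 3 semaphorins act with neuropilins, read 1496, 1553 and 1578 in mutants A, B and C, against 1709, 1927 and 1984 in controls A, B and C. Its mutant libraries lay close together and below all controls. Plxna4 averaged 1543 ± 42.0 in mutants and 1873 ± 145 in controls (SD, n = 3 each). Its mutant mean was 82.3% of the control mean, and its log2 difference of -0.28 (SE 0.12, 95% interval -0.55 to -0.001) had a limma adjusted p of 0.04995, just under the threshold of 0.05.

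**Figure D1:**
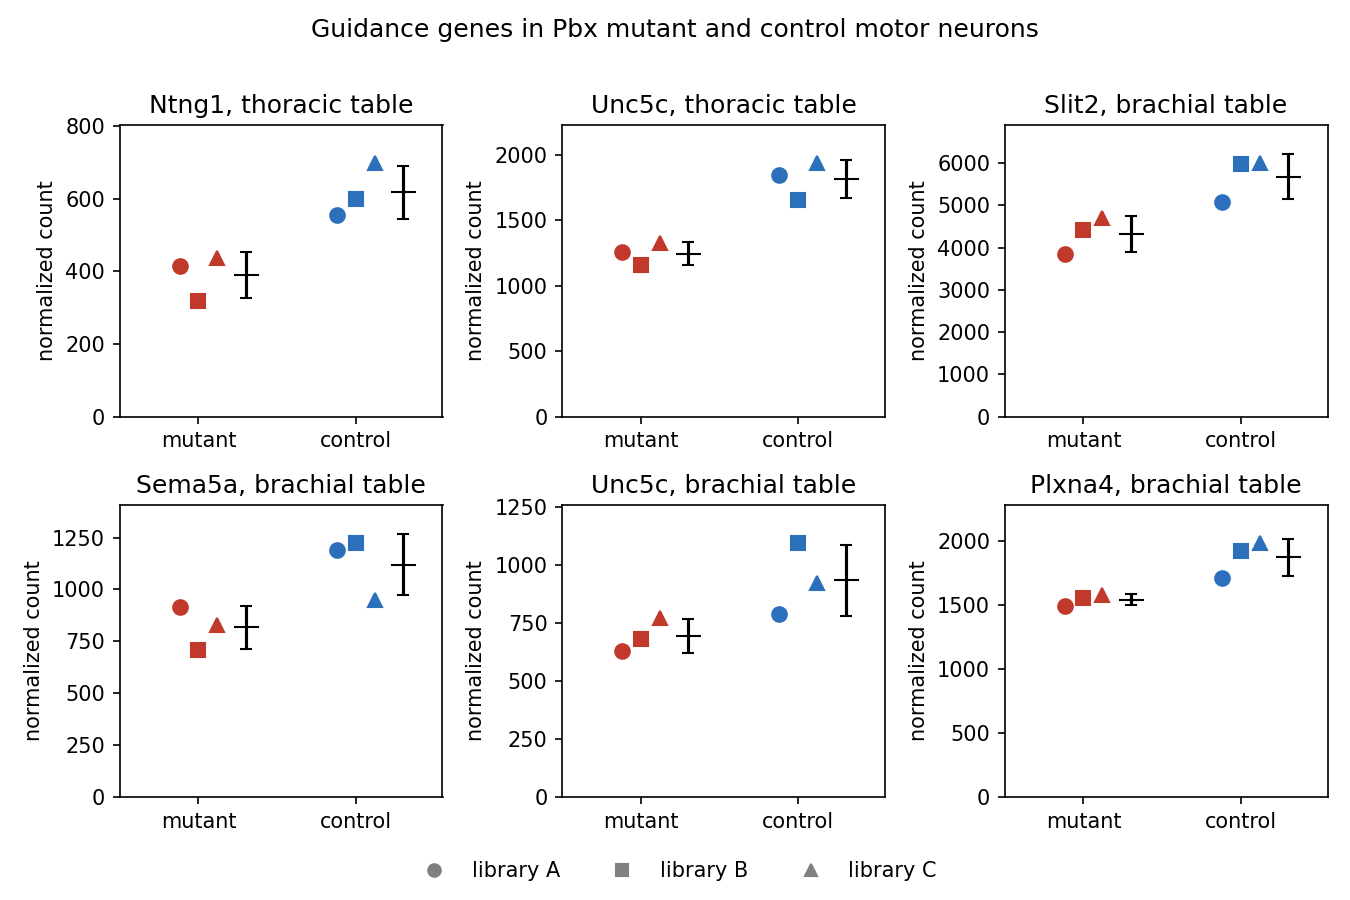
Normalized counts of the guidance genes in each library of the thoracic table (Ntng1, Unc5c) and the brachial table (Slit2, Sema5a, Unc5c, Plxna4), with mutants left and controls right, marker shape for libraries A, B and C, and mean ± SD (n = 3) beside the points; each vertical axis starts at 0. On the authors' scaling every mutant library is below every control library in each panel, with the narrowest gap, 14.5 normalized counts, for brachial Unc5c. Centring every library on the median listed gene instead turns the sign of the difference in all 6 panels.

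These directions follow those of most listed genes, and the members' differences are small among them. The members passed limma as lower in 2 of 2 thoracic and 4 of 4 brachial cases, where 75.4% of all listed thoracic genes and 82.3% of all listed brachial genes did so. The mutant and control libraries did not overlap, with mutants lower, in the same 2 and 4 cases, against 77.7% and 80.6% of listed genes. Since the authors listed genes by their own p-values on these libraries, these counts repeat that selection. The limma adjusted p-values were adjusted over the listed genes only and carry the same selection, so they add no independent support. By size of the log2 difference, Ntng1 ranked 82 and Unc5c 101 of 130 thoracic genes. Sema5a, Unc5c, Slit2 and Plxna4 ranked 44, 47, 53 and 61 of 62 brachial genes. The median log2 difference was -0.60 for the thoracic members and -0.67 for all thoracic listed genes. It was -0.41 for the brachial members and -0.62 for all brachial listed genes.

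**Figure D2:**
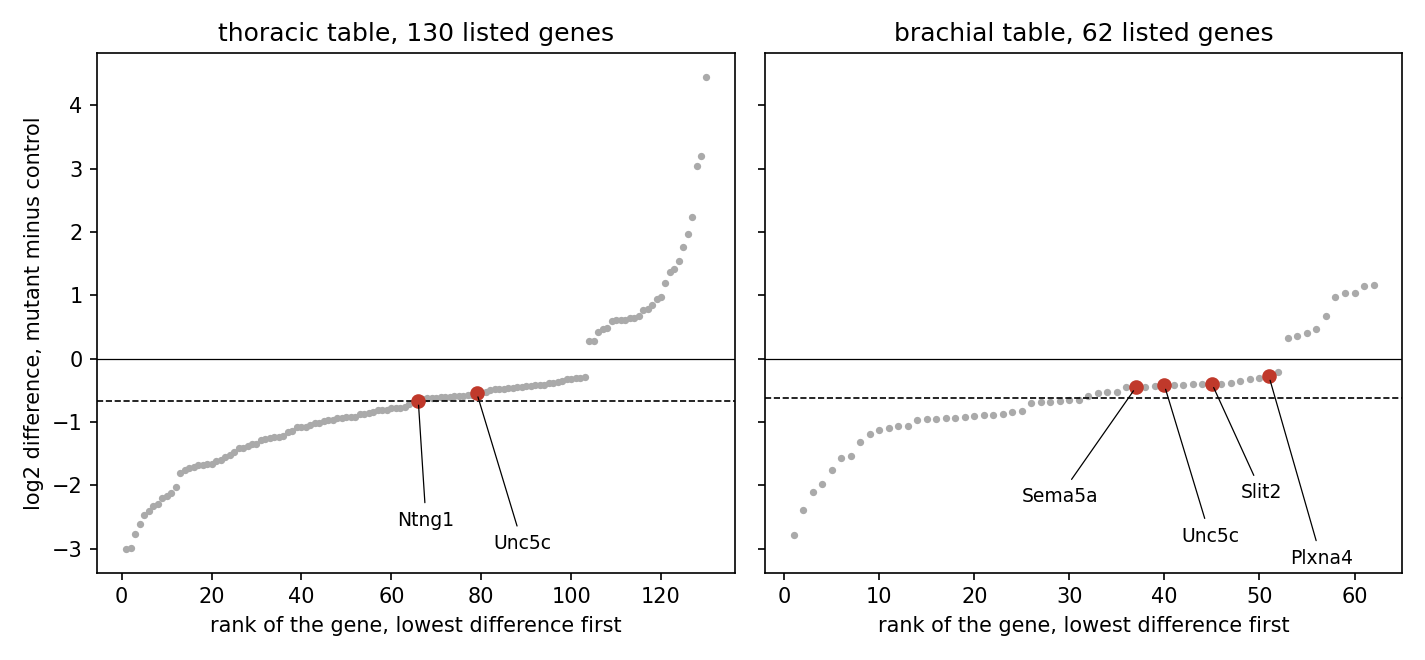
Log2 difference, mutant minus control on the authors' scaling, of every listed gene against its rank, with the lowest first, in the thoracic table (left) and the brachial table (right); red points mark the guidance genes and the dashed line the median of -0.67 (thoracic) or -0.62 (brachial). Ntng1 lies close to the thoracic median, and Unc5c and the 4 brachial members lie between the median and 0; centring every library on the median listed gene puts all 6 above 0.

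The members' differences changed sign when libraries were centred on the median listed gene. Most listed genes were lower in mutants, and the authors had kept them by p-values on these same libraries. They are thus no neutral reference, and whether the authors' scaling holds over all tested genes was not tested. Centring every library on the median listed gene gave log2 differences of 0.047 for Ntng1 and 0.17 for Unc5c in thoracic mutants. In brachial mutants it gave 0.29 for Slit2, 0.23 for Sema5a, 0.26 for Unc5c and 0.41 for Plxna4. Of these, Plxna4 passed limma as higher (adjusted p = 0.0300) and the other brachial members and the thoracic pair did not. The median over listed genes was 0.04 after centring and -0.67 before it in the thoracic table, and 0.07 and -0.62 in the brachial table, so falls smaller than the median turn positive by construction. The calls over all listed genes split into 27 higher and 25 lower in the centred thoracic table, against 25 higher and 98 lower on the authors' scaling. In the brachial table they split into 13 higher and 7 lower when centred, against 10 higher and 51 lower on the authors' scaling.

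In the authors' deposited tables, the log2 fold changes were -0.66 for Ntng1 and -0.54 for Unc5c at the thoracic level, with adjusted p-values of 0.000121 and 7.94e-08. At the brachial level, the authors' deposited table gives -0.35 for Sema5a, -0.34 for Slit2, -0.32 for Unc5c and -0.25 for Plxna4, with adjusted p-values of 0.00897, 0.000419, 0.0358 and 0.0358. Those p-values place brachial Unc5c and Plxna4 near the end of the authors' list, at ranks 55 and 53 of its 62 genes. The authors' tests covered 16235 thoracic and 11847 brachial genes, of which 0.795% and 0.515% were under an adjusted p of 0.05 and listed. For the median gene, the authors' deposited brachial table holds fold changes that are 0.68 of what its group means give, against 0.998 in the thoracic table, and the authors' values for the 4 brachial members are smaller in size than the differences recomputed here.

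Both brachial ligands and both brachial receptors were lower in mutants on the authors' scaling and higher after the centring. The ligands differed by -0.40 (Slit2) and -0.45 (Sema5a) and the receptors by -0.42 (Unc5c) and -0.28 (Plxna4) on the log2 scale. Ratios of 2 members in the same library do not depend on the scaling of that library, and 7 such ratios were compared between mutants and controls. The Slit2 to Unc5c log2 ratio averaged 2.63 ± 0.05 in brachial mutants and 2.61 ± 0.14 in brachial controls (SD, n = 3 each), a difference of 0.02 (SE 0.09; two-sided exact permutation test p = 0.9). The largest gap relative to its error was in Slit2 to Plxna4, which averaged 1.48 ± 0.11 in mutants and 1.60 ± 0.03 in controls, a difference of -0.12 (SE 0.07; exact permutation p = 0.2). The Ntng1 to Unc5c log2 ratio averaged -1.68 ± 0.15 in thoracic mutants and -1.56 ± 0.15 in thoracic controls, a difference of -0.13 (SE 0.12; exact permutation p = 0.4). All 7 ratios overlapped between the groups, with differences from -0.17 to 0.06 and Benjamini-Hochberg adjusted p-values of 0.7 or 1. With 3 libraries against 3, this test cannot go below 0.10, so the ratios show sizes and not equality.

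Per kilobase of merged GENCODE exon, the brachial members were ordered alike in both genotypes. Slit2 had 169.8 ± 17.2 normalized counts per kilobase in brachial mutants and 223.2 ± 20.8 in brachial controls (SD, n = 3 each), the highest of the 4. Plxna4 followed with 109.4 ± 2.98 in mutants and 132.8 ± 10.3 in controls. Sema5a, at 43.8 ± 5.54 in mutants and 59.9 ± 7.97 in controls, and Unc5c, at 36.3 ± 3.81 in mutants and 48.9 ± 8.01 in controls, had overlapping ranges in both genotypes. Within a library, however, Sema5a was above Unc5c in 6 of 6, by log2 ratios per kilobase from 0.07 to 0.63. In the thoracic table, Unc5c had 65.2 ± 4.46 per kilobase in mutants and 94.8 ± 7.62 in controls, above Ntng1 with 47.4 ± 7.62 in mutants and 75.0 ± 8.87 in controls. The ranges of the thoracic pair did not overlap, but the lowest control value of Unc5c, 86.4, was close to the highest of Ntng1, 84.8. Exon lengths come from another build than the one in the submitters' notes, so these levels are approximate.

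The 4 brachial members fell into a group of 3 and 1 by library. Slit2, Unc5c and Plxna4 were lowest in mutant A and highest in mutant C among mutants, and lowest in control A among controls. Of all 62 listed brachial genes, 15 (24.2%) had this order. Sema5a ran otherwise, with its highest mutant value in A, its lowest in B, and its lowest control value in C. Across the 6 brachial libraries, Pearson's r was 0.97 between Slit2 and Plxna4, 0.95 between Slit2 and Unc5c and 0.92 between Unc5c and Plxna4, while Sema5a gave 0.56 with Slit2, 0.60 with Plxna4 and 0.64 with Unc5c. These values describe 6 libraries that share the genotype difference and the library factors.

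**Figure D3:**
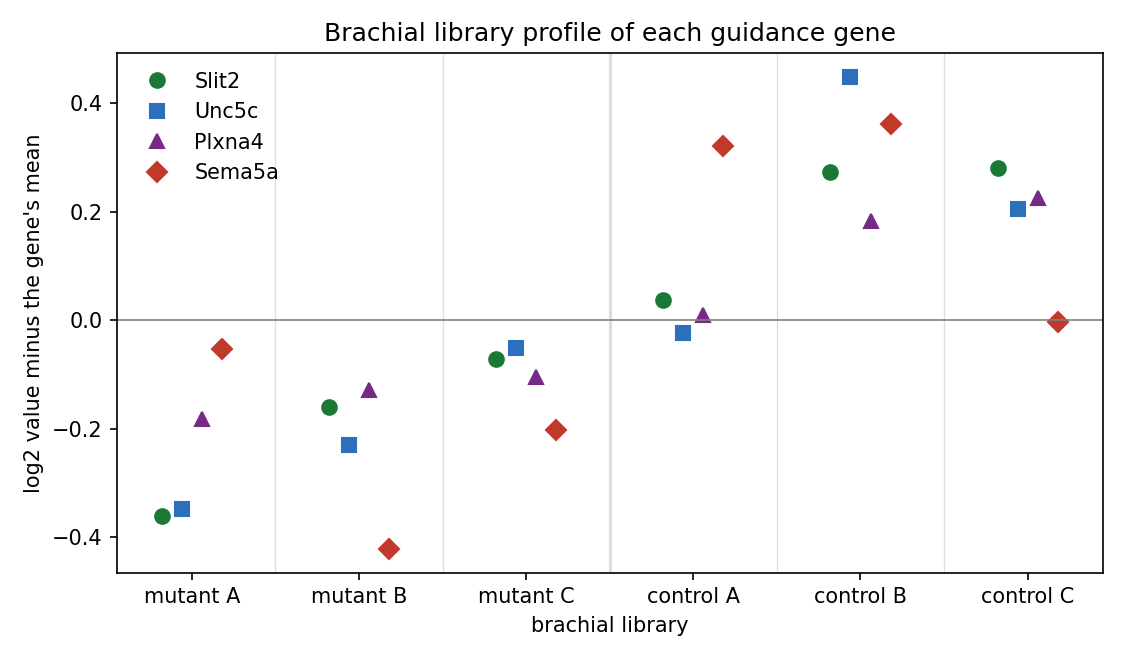
Log2(normalized count + 0.5) of each brachial guidance gene minus its mean over the 6 libraries, for mutants A to C on the left and controls A to C on the right. Slit2, Unc5c and Plxna4 share their lowest mutant (A), highest mutant (C) and lowest control (A), while Sema5a is lowest in mutant B and in control C.

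The listed genes nearest to each member were found by the same correlation over 6 libraries. In the thoracic table, Ntng1 was nearest to Arhgap5 (r = 0.99), Pappa (0.98) and Cacna1e (0.98), and Unc5c to Pag1 (0.99), Ston2 (0.99) and Spry2 (0.98). In the brachial table, Slit2 was nearest to Ngfr (0.99), Qk (0.99) and Chat (0.98), Unc5c to Slc5a7 (0.98), Cdh6 (0.97) and Clstn2 (0.97), and Plxna4 to Mecom (0.996), Ngfr (0.98) and Clstn2 (0.98). Sema5a was nearest to Chic1 (0.96), Hfm1 (0.94) and Sdk1 (0.92). Over the 12 libraries of both tables, each centred on its table mean, Unc5c was nearest to Clstn2 (0.97), Sncg (0.93) and Fam135b (0.92) among the 30 genes in both. All of these correlations include the difference between genotypes, on which the genes were listed.

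Leaving out any 1 library kept the calls of both thoracic members and ended some of those of each brachial member. In the same fits, 100 to 114 of the 130 listed thoracic genes and 40 to 58 of the 62 listed brachial genes passed. Passing in any single fit was thus common to most listed thoracic genes. How many of them passed in all 6 fits was not counted, so keeping every call cannot be called particular to the members. Ntng1 ran from -0.76 to -0.53 and thoracic Unc5c from -0.60 to -0.49 over the 6 fits, with limma adjusted p-values up to 0.0316 and 0.0339. Slit2 lost its call without mutant A (-0.31), mutant B (-0.41), control B (-0.36) or control C (-0.35). Brachial Unc5c lost it without mutant A (-0.35), mutant B (-0.41), control B (-0.30) or control C (-0.42). Sema5a lost it without mutant B (-0.35), control A (-0.40) or control B (-0.38), and Plxna4 kept it only without control A, with differences between -0.29 and -0.23 over the other fits. Without mutant B or without control B, none of the 4 brachial members passed, with limma adjusted p-values between 0.0626 and 0.138, while 43 and 40 of the 62 listed genes still did. No fit with 1 library left out turned the sign of a member on the authors' scaling.

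**Figure D4:**
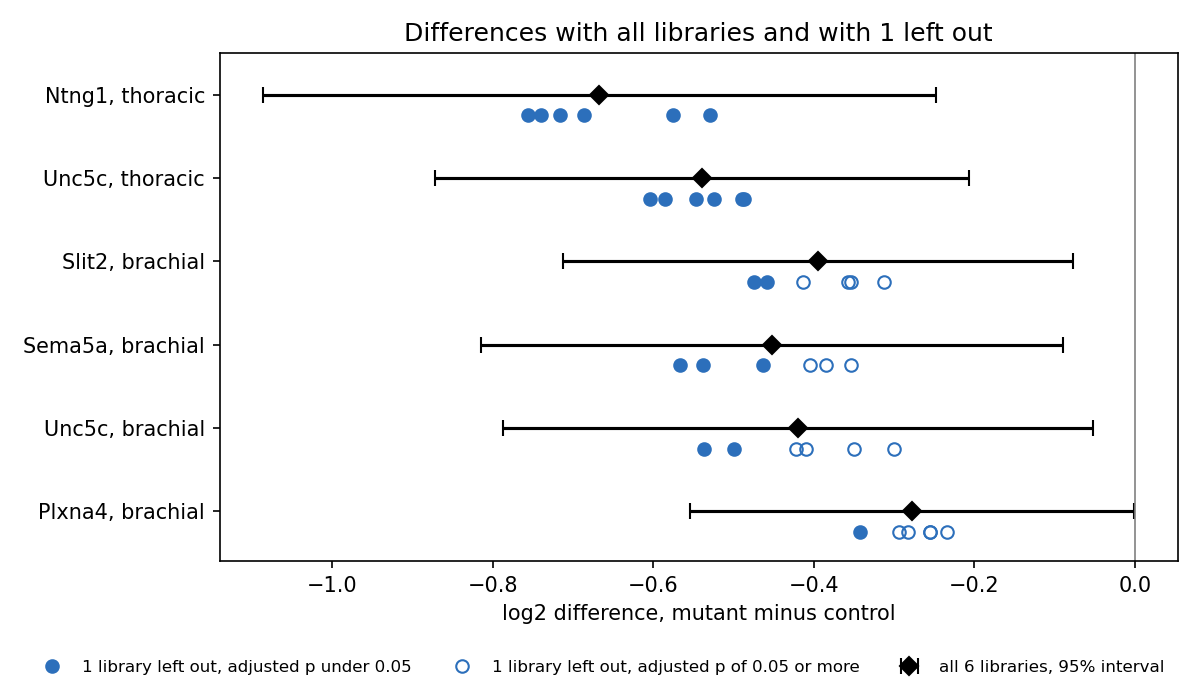
Log2 difference, mutant minus control on the authors' scaling, of each guidance gene with all 6 libraries (diamond, 95% limma interval) and with 1 library left out (circles, filled where the limma adjusted p was under 0.05). Both thoracic rows keep filled circles throughout, while each brachial row has open ones, 5 of 6 for Plxna4; after centring every library on the median listed gene they turn positive.

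Unc5c allowed the mutant effect to be compared between levels. The thoracic difference was not called different from the brachial one (limma interaction, thoracic minus brachial, -0.12 in log2 units, SE 0.20, 95% interval -0.55 to 0.31, unadjusted p = 0.555, adjusted p = 0.986). Of the 30 genes in both mutant tables the limma interaction called 0 (0%), and 0 had an unadjusted p under 0.05. The authors' tests on these same libraries had listed these 30 genes, Unc5c among them, at both levels. A gene changed at 1 level only could hardly enter this set, so the count says little on differences between levels. The Unc5c interval leaves room for an effect up to 0.55 larger at the thoracic level or 0.31 larger at the brachial level.

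Unc5c itself stood lower in brachial than in thoracic control motor neurons. No member is listed in the authors' comparison of control levels, where the smallest listed log2 fold change is 1.004 in size and 64 genes stand of an implied 268 under an adjusted p of 0.05, in the authors' deposited table. A gene with a difference as small as that of Unc5c could therefore not appear there, whatever its p-value. Each control library there differs from its values in the mutant tables by 1 constant factor, within a tolerance of 1e-06 for all 21 thoracic and 2 brachial genes in common, and Unc5c was put on that scale with these factors. It then read 874.2, 1218 and 1023 normalized counts in brachial controls A, B and C, against 1607, 1434 and 1684 in thoracic controls A, B and C. The levels did not overlap, and they averaged 1038 ± 172 in brachial controls and 1575 ± 128 in thoracic controls (SD, n = 3 each). The log2 difference, brachial minus thoracic, was -0.61 (SE 0.15; two-sided exact permutation test p = 0.10, the smallest that 3 against 3 can give). Of the 30 genes in both mutant tables, 43.3% were likewise lower in brachial controls without overlap, and Unc5c had the 5th lowest difference, with a median of -0.15 over the 30. Mutant libraries have no factor of their own on this scale. With the mean factor of the controls of their table, Unc5c averaged 771.9 ± 81.0 in brachial mutants and 1083 ± 74.1 in thoracic mutants (SD, n = 3 each), so that thoracic mutants lay within the range of brachial controls. This placing crosses tables that the authors normalized separately, and it was not tested. The control libraries here are the same ones that serve in the mutant comparisons.

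**Figure D5:**
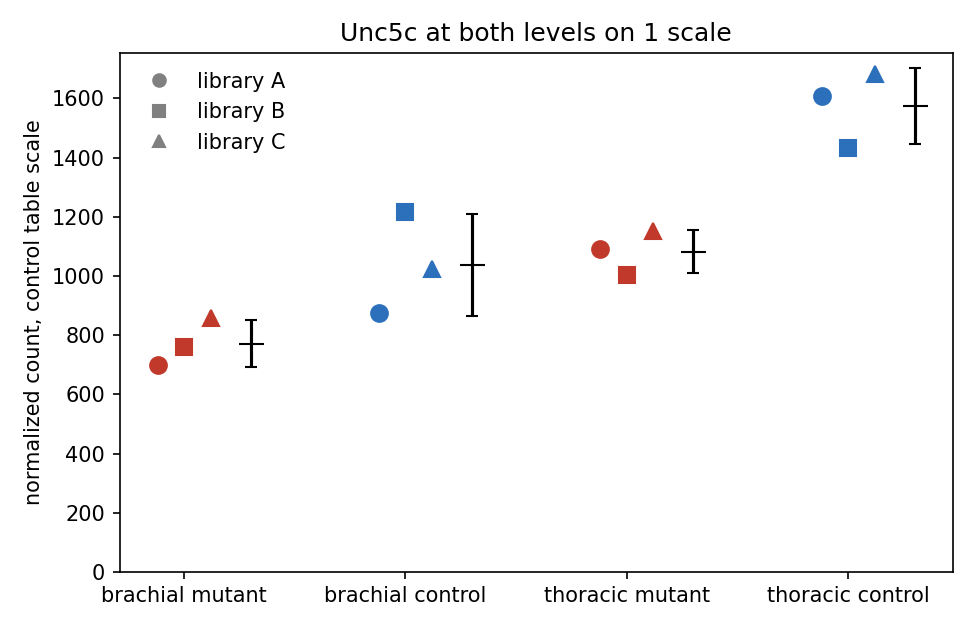
Unc5c normalized counts on the scale of the authors' control table for brachial mutants, brachial controls, thoracic mutants and thoracic controls, with marker shape for libraries A, B and C and mean ± SD (n = 3) beside them. Thoracic controls (1434 to 1684) are above all other libraries, and thoracic mutants (1004 to 1151) lie within the range of brachial controls (874.2 to 1218).

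No other gene of a wider guidance list, which covers some families of cues and receptors and not all, was listed. Of 84 genes in a list of netrin, Slit, semaphorin, ephrin and related cues and receptors, 2 were listed in the thoracic table and 4 in the brachial table. All of these were members and all were called lower on the authors' scaling, as were 75.4% of listed thoracic and 82.3% of listed brachial genes. Of all genes the authors tested, 0.795% (thoracic) and 0.515% (brachial) were under an adjusted p of 0.05 and listed. Between control levels 0 of the 84 were listed, where the authors' fold limit also applied. By role the listed genes were 1 of 43 ligands and 1 of 41 receptors at the thoracic level, and 2 of 43 and 2 of 41 at the brachial level. By family, the netrin group gave Ntng1 and Unc5c among 17 genes, the Slit and Robo group gave Slit2 among 7, and the semaphorin and plexin group gave Sema5a and Plxna4 among 31. No Robo, Dcc, neuropilin, ephrin or Eph gene of the list was listed, and their values were not analysed here. The median log2 difference of the listed guidance genes was therefore that of the members, -0.60 and -0.41.

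Genes of other cells and of motor neuron identity were also listed, and all were lower in mutants on the authors' scaling. Over all listed genes, 75.4% (thoracic) and 82.3% (brachial) were called lower. With the centring, Nes, Slc5a7 and Spon1 turned and Postn, Col2a1, Chat and Prph did not. The signs of Slc5a7 (0.096, limma adjusted p = 0.592) and Prph (-0.0066, limma adjusted p = 0.989) say little, since both differences were small beside their errors (SE 0.15 and 0.16). Of 9 motor neuron markers, 0 were listed at the thoracic level and 3 at the brachial level, namely Chat, Slc5a7 and Prph, with log2 differences of -1.54, -0.59 and -0.69 that all passed as lower on the authors' scaling. After the centring, only Chat, the enzyme of acetylcholine synthesis, still passed as lower (-0.86, limma adjusted p = 0.0126). Their summed normalized count ran from 623.3 to 775.5 in brachial mutants and from 864.0 to 1294 in brachial controls. Of 66 markers of other cells, Nes of progenitors and Postn and Col2a1 of mesenchyme were listed at the thoracic level, all called lower on the authors' scaling. Their sums ran from 456.3 to 479.0 in thoracic mutants and from 639.2 to 848.2 in thoracic controls. Most of each sum was Nes, which averaged 428.3 in mutants and 597.8 in controls. Col2a1 averaged 34.7 in mutants and 77.4 in controls, and Postn 7.91 and 35.4, so the sums say little on mesenchyme. At the brachial level 1 of 66 was listed, Spon1, a floor plate product, with 488.5 to 531.5 in mutants and 647.5 to 778.9 in controls. Its difference of -0.42 in log2 units (SE 0.13, limma adjusted p = 0.0179) became 0.27 after the centring. After the centring, Postn still passed as lower (-1.40, limma adjusted p = 0.0128) and Col2a1 (-0.37) and Nes (0.25) did not pass. None of these listed markers was at 0 in any library, but Postn read only 5.11 to 9.89 normalized counts in thoracic mutants. The part of these shifts in the members' falls was not tested. Each library holds RNA of many cells, so fewer cells that express a gene and less of its RNA per cell cannot be told apart.

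Pbx3, which encodes a homeodomain partner of Hox proteins, was lower in mutants at both levels on the authors' scaling, with log2 differences of -0.59 (SE 0.16, limma adjusted p = 0.0107) in the thoracic table and -0.65 (SE 0.15, limma adjusted p = 0.00646) in the brachial table that became 0.13 and 0.04 after the centring. Whether the mutants carry a deletion in Pbx3 is not stated, so these values do not check the labels. Over the listed genes the libraries held between 50690 and 81370 steps in the thoracic table and between 39381 and 52090 in the brachial one, where a step is the value of 1 read if the authors counted whole reads. On that reading the members rested on 291 to 660 reads per library for Ntng1, 658 to 1048 for brachial Unc5c and 4018 to 5826 for Slit2. The spread among replicates was then 1.18 times the counting variance for Plxna4 in mutants and 45.4 times for Slit2 in mutants, so that counting error was a small part of the spread for Slit2.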

How the data were processed

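The submitters' processing notes name HTSeq 0.6.1p1, DESeq2 1.12.3, Bowtie 1.0.0 and Picard 1.88 and the builds NCBIM37 and mm9, with no role, setting or strand. The authors deposited 1 table per comparison, holding the genes they kept, with per-library values that behave as a normalized signal, 1 factor per library (100% of nonzero values are whole multiples of 1 step, tolerance 1e-06); whether a step is 1 read was not established. The authors normalized the tables separately. They also deposited the log2 fold changes, standard errors, test scores and p-values of their own model.

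From these, log2(normalized count + 0.5) was fitted per table with limma 3.58.1 in R 4.3.3, mutant minus control over 3 and 3 libraries. Benjamini-Hochberg adjustment ran over all listed genes, with a threshold of 0.05 and no further filter. Since the authors had kept genes by p-values on these same libraries, the limma adjusted p-values are not false discovery rates over all tested genes. The fits were tested on simulated data. The level by genotype interaction used 12 libraries and 30 genes. Ratios and control levels were compared by exact permutation tests (scipy 1.17.1). Genes named are the members, listed genes of the guidance and other-cell lists and of the motor neuron list, Pbx3, and the 3 nearest genes by correlation. The members and lists were chosen with earlier results of these data known. All 205 gene identifiers were found in the reference, where 4 of them carry another symbol.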

Additional observations from a re-analysis of the deposited data

How the results depend on the processing

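Centring every library on the median listed gene left 52 (thoracic) and 20 (brachial) calls, against 123 and 61 on the authors' scaling, and the member differences turned positive, to 0.047 (Ntng1), 0.17 (Unc5c, thoracic), 0.29 (Slit2), 0.23 (Sema5a), 0.26 (Unc5c, brachial) and 0.41 (Plxna4). Centring instead on the median deviation from each gene's mean, a choice made after seeing the data, gave 59 and 23 calls and -0.024, 0.10, 0.17, 0.11, 0.14 and 0.29 in the same order, none passing limma. Both centrings remove the fall of most listed genes by construction. With a pseudocount of 2, Plxna4 (-0.28) had an adjusted p of 0.0503. Leaving out 1 library gave 40 to 58 brachial and 100 to 114 thoracic calls, and differences from -0.47 to -0.31 (Slit2), -0.57 to -0.35 (Sema5a), -0.54 to -0.30 (Unc5c, brachial) and -0.34 to -0.23 (Plxna4), with fewer samples in each fit. With the replicate letter as a block (replicate block; same-lettered libraries did not deviate together throughout, with r from -0.49 to 0.31), calls were 118 and 60 and all 6 member calls were kept; the pseudocount of 0.1, the minimum mean of 1 and the intensity trend kept them too. The Unc5c interaction passed under no setting (from -0.24 to -0.003 with 1 library left out). The planned tests on read counts were not run, since the listed low values were too few to establish whole reads. Library depth is not known, and what it limits was not tested; with 3 libraries against 3, exact tests cannot go below p = 0.10.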
